A study of Mus musculus with 4 samples.

Results

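The 34 genes described here act in G2 and mitosis: the cyclins and kinases that start cell division, the spindle checkpoint, the motors and linkers of the spindle, the centromere, and the chromosome scaffold. They were taken by name, from a list written for this work, and all 34 have a row among the 23235 genes of the deposited tables. RNA was sequenced from mouse acute myeloid leukaemia (AML) of the genotype NRASG12V/Mll-AF9, which carries an oncogenic NRAS that can be switched off and an MLL fusion. All 4 libraries share that genotype and the host, SCID/Beige mice, which received the leukaemia cells through the tail vein. These mice lack mature T and B cells and have weak natural killer cells, and they keep their own blood-forming cells. One library is labelled NRASG12V on. The others are labelled off at 48 h, 72 h and 96 h. Doxycycline, by injection and in the drinking water from time 0, switches NRASG12V off, and the labels give the same treatment text for all 4 libraries, so whether the on library received any cannot be read from them. The mice were left until the leukaemia was advanced. Their age, the tissue taken, the promoter behind NRASG12V, whether cells were pooled and whether the libraries are from different mice are unstated in the labels. No group is labelled as given the drug with NRASG12V kept on. Elapsed time, drug and switch therefore cannot be told apart.

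Genes of mitosis are transcribed late in the cell cycle, peak in G2 and M, and many of the proteins are destroyed as cells divide, so in a mixed sample their RNA follows the share of cycling cells as well as the level per cell. In bulk RNA, fewer cells of a type and less RNA per cell cannot be told apart. Cyclin B with Cdk1 drives entry into mitosis, the checkpoint holds the anaphase-promoting complex (APC/C) until chromosomes are attached, and the APC/C then destroys the cyclins. In blood, dividing cells include leukaemic blasts and the early red cell precursors of the marrow and spleen.

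Many of these genes are controlled through a promoter element called the CHR (cell cycle genes homology region), bound by the DREAM and MuvB complexes, and through CCAAT boxes bound by NF-Y. Promoter windows from RefSeq (build GRCm38.p6, 250 bases before to 50 after the start site) matched 28 of the 34 members, in 29 windows, since Prc1 has a pair of start sites. A CHR, searched as TTTGAA or TTCGAA on both strands, was found in 24 of the 29 windows (82.8%), against 19.2% of all 32851 windows in the table. A CCAAT box, searched as CCAAT on both strands, was found in 25 windows (86.2%), against 37.4%, and both motifs in 22 (75.9%), against 7.52%. In 1 member window (3.45%) a CHR overlapped a CCAAT box, against 0.146% of all windows. The members without a match in the table were Ccna2, Cdc25c, Foxm1, Aurkb, Kif20a and Tpx2. A match describes the letters in the window and is no evidence that a factor binds there.

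The bases just before the start site are shown for 6 members: Mki67 and Hmmr, which passed the test across the off libraries, Ube2c and Top2a, which were higher in all off libraries, and Cdk1 and Cdc20, which were below the on library at 48 h. None is from the members that were below it at every time. Each is written 5′ to 3′ on the gene's strand, with CHR and CCAAT matches in capitals on whichever strand they lie (ATTGG is CCAAT read from the other strand, and TTCAAA is TTTGAA so read). The Mki67 stretch is chr7:135716380-135716579 (minus strand), Hmmr chr11:40733438-40733587 (minus), Ube2c chr2:164769809-164769928 (plus), Top2a chr11:99024190-99024339 (minus), Cdk1 chr10:69352913-69353032 (minus) and Cdc20 chr4:118437344-118437443 (minus), all in GRCm38.p6, a later build than the mm9 of the expression values.
Mki67: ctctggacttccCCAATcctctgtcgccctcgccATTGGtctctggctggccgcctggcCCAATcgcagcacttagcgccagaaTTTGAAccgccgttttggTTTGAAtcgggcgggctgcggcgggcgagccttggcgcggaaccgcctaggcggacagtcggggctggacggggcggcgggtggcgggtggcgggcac
Hmmr: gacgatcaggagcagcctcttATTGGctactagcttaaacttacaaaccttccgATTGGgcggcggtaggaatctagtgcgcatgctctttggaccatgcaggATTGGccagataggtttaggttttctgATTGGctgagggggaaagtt
Ube2c: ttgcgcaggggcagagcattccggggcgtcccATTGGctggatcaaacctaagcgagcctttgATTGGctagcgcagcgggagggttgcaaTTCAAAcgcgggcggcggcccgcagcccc
Top2a: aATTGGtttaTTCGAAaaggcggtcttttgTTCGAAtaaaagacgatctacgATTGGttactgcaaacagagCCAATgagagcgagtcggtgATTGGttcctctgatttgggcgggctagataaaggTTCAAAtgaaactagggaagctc
Cdk1: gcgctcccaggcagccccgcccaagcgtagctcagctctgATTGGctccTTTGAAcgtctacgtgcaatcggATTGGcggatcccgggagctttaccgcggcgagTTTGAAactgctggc
Cdc20: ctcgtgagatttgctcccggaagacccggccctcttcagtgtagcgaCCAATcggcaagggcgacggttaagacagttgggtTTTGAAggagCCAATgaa
Mki67 and Cdk1 each show a pair of CHR matches in the printed stretch and Top2a 3, while Hmmr shows CCAAT boxes alone, its CHR lying just after the start site. Members with both motifs are found among those that were above the on library at every time (Mki67, Ube2c, Top2a) and among those below it at 48 h (Cdk1, Cdc20).

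The authors' values are FPKM, fragments scaled by transcript length and by library total. Read counts were not used here, the depth is unknown, and values carry no counting interval. Each time has 1 library and 1 table of its own beside the on library, headed 0 hours, and each table was scaled separately. Changes are log2((off + 1)/(on + 1)) within each table, a scale that understates the change of low genes. Levels set across times rest on a common scale built from the shared on column. Mouse Nras had 23.6 FPKM on, against 16.5, 17.4 and 18.8 FPKM off (limma, Benjamini-Hochberg adjusted p = 0.128), and human NRAS reads need not be assigned to it, so it is a weak check of the labels. Pan-leukocyte markers were present in every library, with a summed level of 5270 FPKM on and 3890, 3110 and 2370 FPKM off. Lymphoid markers were not all absent. Cd3d, of the T cell receptor complex, rose from 3.79 FPKM on to 13.9, 11.3 and 7.42 FPKM (limma adjusted p = 0.0168), and the NK receptor gene Ncr1 from 0.715 FPKM to 2.77, 3.24 and 3.20 FPKM (adjusted p = 0.00247). Cd79b, of the B cell receptor complex, fell from 13.1 FPKM to 4.49, 4.27 and 4.01 FPKM (adjusted p = 0.0019). Klrb1c was the fourth such marker tested and did not pass, while Cd3e, Cd3g, Cd79a and Ms4a1 were below 1 FPKM in every library. Their part in the mitotic gene levels was not tested.

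**Figure D1:**
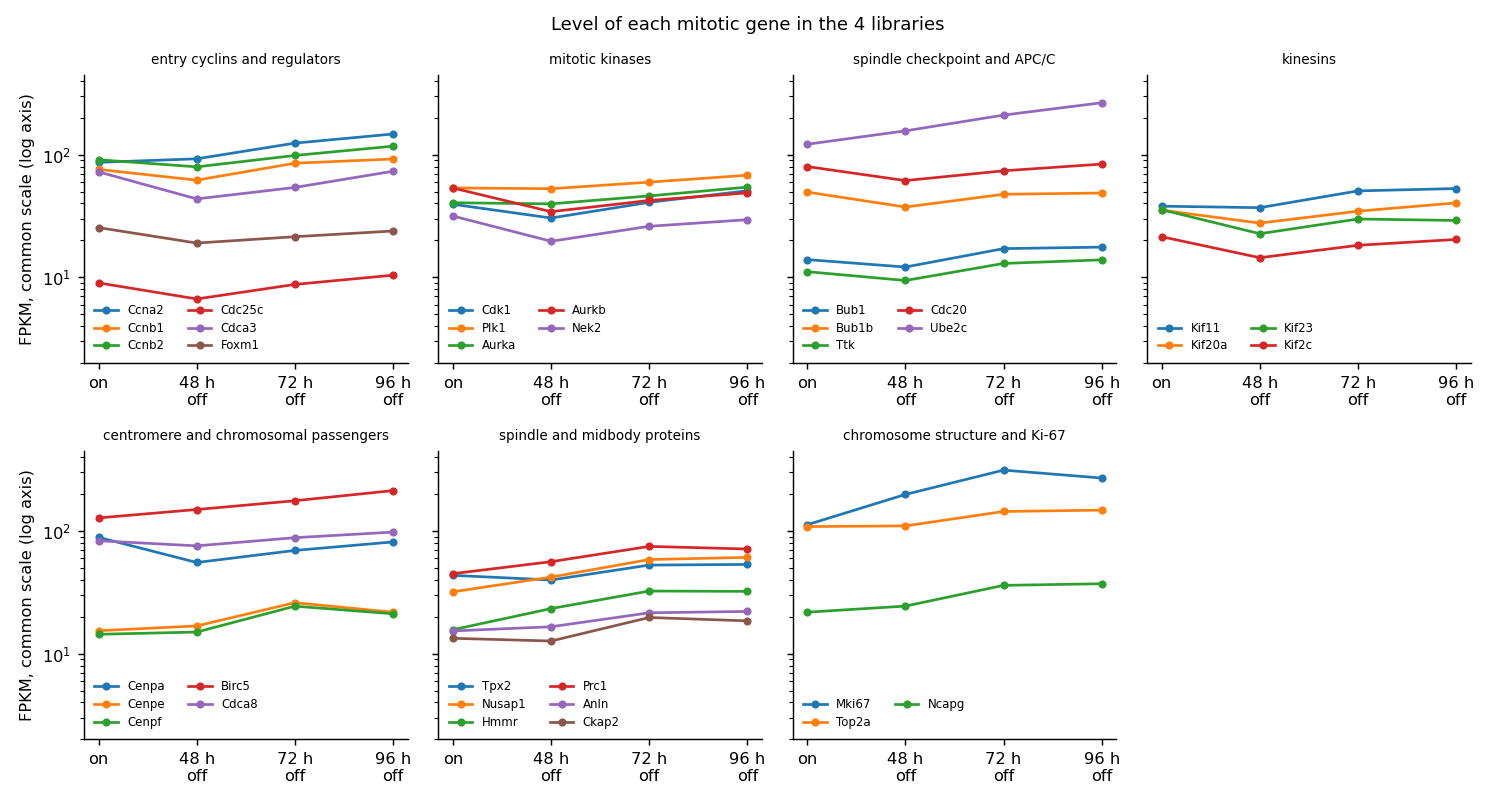
FPKM on the common scale (log axis) of each of the 34 mitotic genes in the on library and at 48 h, 72 h and 96 h off, 1 point per library, in 7 panels by role. The levels run from 6.66 to 314 FPKM, and every line climbs from 48 h to 72 h.

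The summed RNA of the mitotic genes was level with the on library at 48 h and higher at the later times. It was 1720 FPKM on, then 1700, 2240 and 2440 FPKM off at 48 h, 72 h and 96 h, that is 98.4%, 130% and 141% of the on library. All 34 members reached the 1 FPKM filter in the on library itself, with levels there from 9.01 FPKM for the phosphatase gene Cdc25c to 128 FPKM for Birc5 (survivin). At 48 h, 12 of 34 members were above the on library (35.3%, against 40.3% of the 11958 genes tested). At 72 h this held for 23 (67.6%, against 45.7% of all genes) and at 96 h for 27 (79.4%, against 46.4%).

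The members' median change was -0.13 at 48 h, 0.19 at 72 h and 0.35 at 96 h, beside -0.13, -0.06 and -0.05 over all genes tested. Genes at 1 FPKM or more in both libraries had median changes of -0.15, -0.09 and -0.07. Relative to these, the members' medians were 0.02, 0.28 and 0.42, so the sign at 48 h flips with the scaling. Few members moved far: none was 2-fold higher or lower at 48 h, where 4.90% and 4.76% of all genes were. Mki67 and Hmmr, 2 of 34, were 2-fold or more higher at 72 h (6.49% of all genes), and Mki67 and Ube2c, again 2, at 96 h (7.25%). None was 2-fold lower at 72 h or 96 h, where 5.65% and 8.0% of all genes were (957 of 11958 at 96 h). These comparisons have 1 library a side, so they carry no replicate check and no p-value.

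With the 3 off libraries as 1 group against the on library, limma called 2 of 34 members higher (11.8% of all genes tested) and none lower (15.2% of all genes). With an unadjusted p under 0.05 there were 5, all with a mean above the on library (14.7%, against 17.4% of all genes). The labels do not say that the libraries come from separate mice, and the p-values cover no more than the scatter among these samples. In this fit the times differ only as scatter, and the single on library is given the variance of the off group. Among the off libraries, the 48 h library was the lowest for all 34 members. Leaving it out therefore raises the mean of every member by construction. Without the 48 h library 9 members passed, all higher: Mki67, Hmmr, Nusap1, Ube2c, Prc1, Ncapg, Ccna2, Cenpf and Cenpe. That is 26.5% of the members, against 15.7% of all genes called higher in the same fit. Without the 72 h library 1 passed (Mki67), against 9.37% of all genes.

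**Figure D2:**
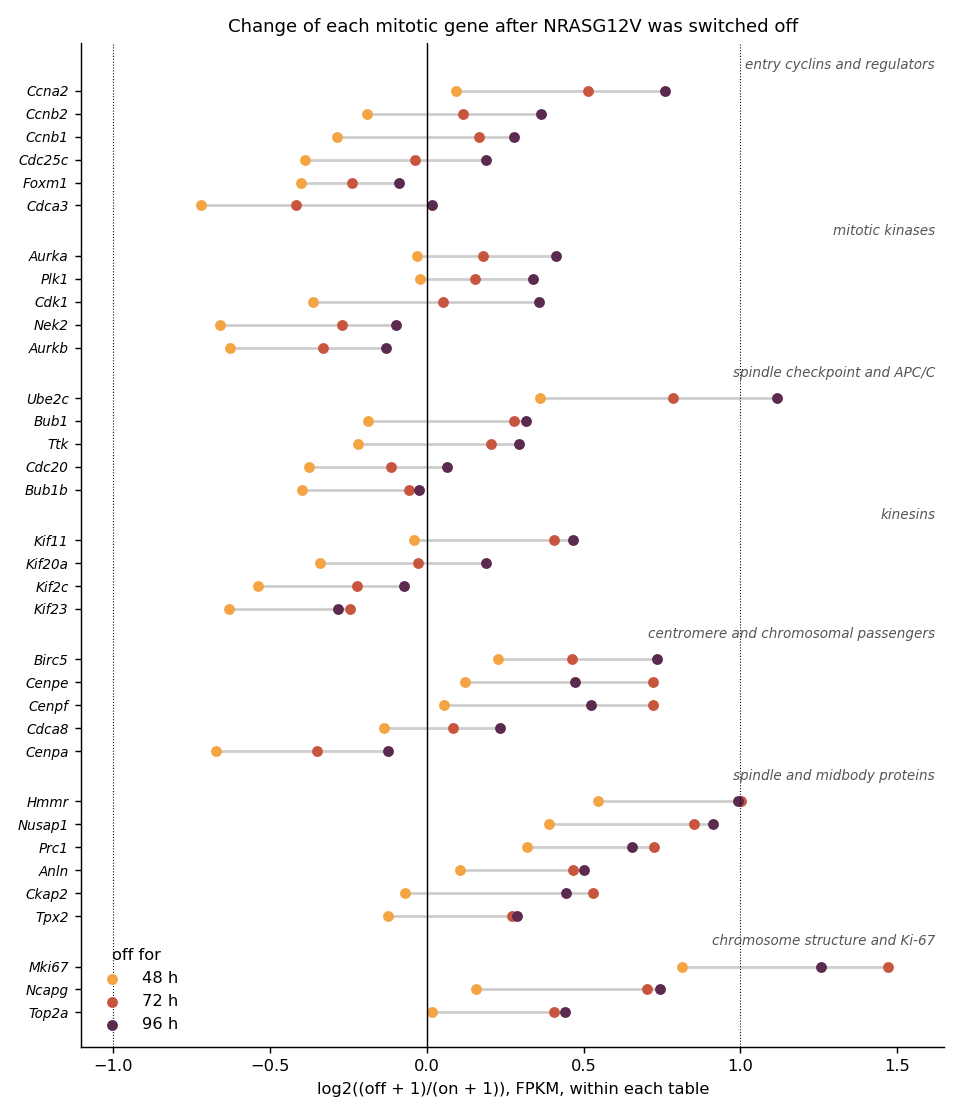
log2((off + 1)/(on + 1)) in FPKM for each mitotic gene, grouped by role, with 1 point each for 48 h, 72 h and 96 h, a grey line joining the lowest and highest, and dotted lines at 2-fold. The 48 h point is the lowest of the 3 for all 34 genes.

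The genes of chromosome structure and Ki-67 had medians of 0.16, 0.70 and 0.74, and Mki67 had the largest mean change of the 34 members. Mki67 encodes Ki-67, the nuclear protein that coats mitotic chromosomes and the usual stain for cycling cells. Its level was 113 FPKM on, then 199, 314 and 270 FPKM off at 48 h, 72 h and 96 h. All 3 off libraries lay above the on library, with the 72 h library highest. Mki67 rose by 1.18 ± 0.33 on the log2 scale (SD, n = 3 off libraries; limma, Benjamini-Hochberg adjusted p = 0.0167, range over the alternatives 0.00184 to 0.0587, the highest with no filter on low values). Top2a, the topoisomerase that untangles sister chromatids, was at 109 FPKM on and at 110, 144 and 148 FPKM off, so the 48 h library did not stand apart from the on library. Ncapg, a condensin subunit, was at 21.8 FPKM on and at 24.4, 36.1 and 37.2 FPKM off (mean change 0.53 ± 0.33, limma adjusted p = 0.153, and 0.0119 without the 48 h library, in a range of 0.00732 to 0.380).

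Spindle and midbody proteins had medians of 0.21, 0.63 and 0.58, and all 6 members were higher at 72 h and at 96 h. Hmmr, a spindle protein also known as the hyaluronan receptor RHAMM, had 15.7 FPKM on, against 23.3, 32.4 and 32.2 FPKM off. It rose by 0.85 ± 0.26 (n = 3, limma, Benjamini-Hochberg adjusted p = 0.0299, but 0.0844 without the 72 h library, the highest of a range that starts at 0.000382). The off libraries did not overlap the on library, and those at 72 h and 96 h were alike. Nusap1, which bundles spindle microtubules, was at 31.9 FPKM on and at 42.1, 58.5 and 61.0 FPKM off. Its mean change of 0.72 ± 0.29 just missed the threshold (limma adjusted p = 0.0618), passed with the median change set to 0 (adjusted p = 0.0395) and without the 48 h library (0.00534), and spanned 0.000759 to 0.192 over the alternatives. Prc1, which crosslinks the central spindle, was at 44.9 FPKM on and at 56.2, 74.9 and 71.3 FPKM off (0.57 ± 0.22, limma adjusted p = 0.0931, and 0.0163 without the 48 h library, in a range of 0.00430 to 0.367).

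The other spindle members lay closer to the on library. Anln, the cleavage furrow protein anillin, was at 15.3 FPKM on and at 16.6, 21.5 and 22.1 FPKM off, above it each time. Ckap2, which stabilises spindle microtubules, was at 13.3 FPKM on and at 12.7, 19.7 and 18.5 FPKM off, and Tpx2, the activator of Aurora A, at 43.5 FPKM on and at 39.9, 52.8 and 53.4 FPKM off. Both were below the on library at 48 h and above it later. None of these 3 passed limma's test.

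The cyclins and entry regulators started below the on library. Their median change was -0.34 at 48 h, 0.04 at 72 h and 0.23 at 96 h. Ccna2 (cyclin A2, which acts from S phase to early mitosis) was the exception, at 86.6 FPKM on and 92.5, 124 and 147 FPKM off (0.46 ± 0.34, limma adjusted p = 0.237, and 0.0374 without the 48 h library, in a range of 0.00816 to 0.464). The mitotic cyclin Ccnb1 was at 75.8 FPKM on and at 62.0, 85.2 and 92.1 FPKM off, and Ccnb2 at 90.9 FPKM on and 79.5, 98.5 and 117 FPKM off. The B-type cyclins thus shared a dip at 48 h and a level above the on library from 72 h. Cdc25c, the phosphatase that activates Cdk1, was at 9.01 FPKM on and at 6.66, 8.75 and 10.4 FPKM off.

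Cdca3 and Foxm1 were, like Cdc25c, below the on library at 72 h as well as at 48 h. Cdca3, a trigger of mitotic entry, was at 72.4 FPKM on and at 43.6, 54.0 and 73.2 FPKM off, level with the on library by 96 h. Its change of -0.72 at 48 h was the lowest of any member. Foxm1, the transcription factor that drives many of the other members, was at 25.4 FPKM on and at 19.0, 21.4 and 23.9 FPKM off, below the on library in all 3, with a mean change of -0.24 ± 0.16 (limma adjusted p = 0.386).

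Among the kinases, Cdk1, the partner of the B-type cyclins, was at 39.4 FPKM on and at 30.4, 40.9 and 50.8 FPKM off. Its mean over the off libraries (0.02 ± 0.36, limma adjusted p = 0.972) averages changes from -0.36 to 0.36. Plk1, which acts from entry to cytokinesis, was at 53.5 FPKM on and at 52.8, 59.7 and 68.0 FPKM off. The Aurora kinases stood apart from each other at every time. Aurka, the kinase of the spindle poles, was at 40.6 FPKM on and at 39.7, 46.1 and 54.4 FPKM off, whereas Aurkb, the kinase of the chromosomal passenger complex, was at 53.5 FPKM on and at 34.3, 42.3 and 48.8 FPKM off. Nek2, which separates the centrosomes, followed the second pattern, at 31.6 FPKM on and 19.7, 26.1 and 29.5 FPKM off. Neither Aurkb (-0.36 ± 0.25, limma adjusted p = 0.273) nor Nek2 (-0.34 ± 0.29, adjusted p = 0.319) passed. The kinases' medians were -0.36, 0.05 and 0.34, with 0, 3 and 3 of 5 above the on library.

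The checkpoint and APC/C genes had medians of -0.22, 0.21 and 0.30. The checkpoint kinase genes Bub1 and Ttk (Mps1) were alike: Bub1 was at 13.9 FPKM on and 12.1, 17.1 and 17.6 FPKM off, and Ttk at 11.1 FPKM on and 9.42, 13.0 and 13.9 FPKM off. Bub1b, which encodes BubR1 of the mitotic checkpoint complex, was at 49.5 FPKM on and at 37.4, 47.6 and 48.7 FPKM off, never above the on library. Cdc20, the APC/C activator that the checkpoint restrains, was at 80.0 FPKM on and at 61.5, 73.9 and 83.8 FPKM off. Ube2c, the E2 enzyme that works with the APC/C, differed from these, at 122 FPKM on and 156, 210 and 265 FPKM off. It was above the on library each time and was 1.12 higher on the log2 scale at 96 h, with a mean of 0.75 ± 0.38 (limma adjusted p = 0.0885, and 0.0118 without the 48 h library, in a range of 0.000476 to 0.171).

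The 4 kinesins grouped here had medians of -0.44, -0.12 and 0.06 and with 0, 1 and 2 of 4 above the on library; relative to the shift of all genes these medians were -0.29, -0.04 and 0.13. Other kinesins in the lists varied. Cenpe, described with the centromere, was above the on library in all 3. Of 7 more in the comparison list, 6 (Kif4, Kif14, Kif15, Kif18a, Kif18b and Kif22) were above it at 72 h and 96 h and Kifc1 was below. At 48 h Kif14 and Kif18a were above it (0.26 and 0.27). Kif4, Kif15, Kif18b, Kif22 and Kifc1 were below it at 48 h (-0.05, -0.08, -0.004, -0.16 and -0.38). None of these passed limma's test. Kif11 (Eg5), which pushes the spindle poles apart, was at 38.0 FPKM on and 37.0, 50.6 and 52.9 FPKM off. Kif20a, a motor of the central spindle, was at 35.3 FPKM on and 27.7, 34.6 and 40.4 FPKM off. The other two never reached the on level. Kif23, the motor of centralspindlin, needed for cytokinesis, was at 35.6 FPKM on and at 22.7, 29.9 and 29.1 FPKM off, with the lowest mean of any member (-0.39 ± 0.21, limma adjusted p = 0.212). Kif2c (MCAK), which depolymerises microtubules at centromeres, was at 21.4 FPKM on and at 14.5, 18.2 and 20.4 FPKM off.

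Centromere and passenger genes went different ways, with medians of 0.06, 0.46 and 0.47. Cenpa, the histone variant that marks the centromere, was at 88.8 FPKM on and at 55.4, 69.5 and 81.5 FPKM off, below the on library in all 3 (-0.38 ± 0.28, limma adjusted p = 0.272). The large kinetochore proteins were above it in all 3: Cenpe, a kinesin that moves chromosomes to the spindle equator, was at 15.4 FPKM on and 16.8, 26.0 and 21.8 FPKM off, and Cenpf at 14.4 FPKM on and 15.0, 24.4 and 21.1 FPKM off. Both were highest at 72 h. Of the passenger complex, Birc5 (survivin) was at 128 FPKM on and 150, 176 and 214 FPKM off, above the on library each time (0.47 ± 0.25, limma adjusted p = 0.176), and Cdca8 (borealin) at 83.2 FPKM on and 75.7, 88.2 and 98.0 FPKM off. Their partner Aurkb was lower in all 3. Incenp, a further gene of the complex from the comparison list, was at 87.4 FPKM on and at 79.7, 88.5 and 96.0 FPKM off. None of these passenger genes passed limma's test, so their unlike directions against the on library describe these libraries only.

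Counted together, 12 members had all 3 off libraries above the on library (35.3%, against 33.4% of all genes tested) and 7 had all 3 below (20.6%, against 45.7%). The 12 were Mki67, Top2a, Ncapg, Hmmr, Nusap1, Prc1, Anln, Cenpe, Cenpf, Birc5, Ube2c and Ccna2. The 7 were Kif23, Kif2c, Cenpa, Aurkb, Nek2, Bub1b and Foxm1. The remaining 15 were below the on library at 48 h and above it at 96 h. These signs depend on the scaling. At 48 h Plk1, Aurka, Kif11, Ckap2, Tpx2 and Cdca8 had changes from -0.02 to -0.14. Those are smaller in size than the median shift of -0.15 given above. Bub1b at 96 h (-0.02) was likewise within the shift of -0.07. The share of all genes tested with that pattern was not counted. It can be no larger than the share that was neither above at all 3 times nor below at all 3.

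The off libraries differed from one another in a more uniform way. All 34 members were higher at 72 h than at 48 h (60.9% of all genes were) and all 34 were higher at 96 h than at 48 h (59.4% of all genes). At 96 h, 27 were also higher than at 72 h (79.4%, against 50.4%). From 48 h to 96 h the change ran from 0.31 for Foxm1 to 0.76 for Ube2c, with a median of 0.50, beside 0.08 over all genes tested. The SD over the 34 members was 0.11, whereas their changes from the on library had SDs of 0.37, 0.44 and 0.37 at the 3 times. Over the 6108 genes tested whose mean level lies in the members' range, the corresponding SDs were 0.46 for 96 h against 48 h and 0.71, 0.76 and 0.84 against the on library. A narrow range for this step was also seen in other lists. It was 0.29 to 0.82 for DNA replication genes, 0.43 to 0.93 for erythroid markers without globins and -0.91 to -0.44 for pan-leukocyte markers. Ranges elsewhere were -0.79 to 0.74 for the comparison list of mitotic genes, -0.03 to 0.74 for regulators of mitotic transcription and -0.63 to 0.32 for Cdk inhibitors. The role groups had similar medians for this step, from 0.43 for the spindle and midbody proteins to 0.57 for the cyclins and entry regulators. All 34 also stood above their 48 h level at both later times with the median change set to 0 and with quantile normalization. Each time is 1 library, so these counts describe these libraries.

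**Figure D3:**
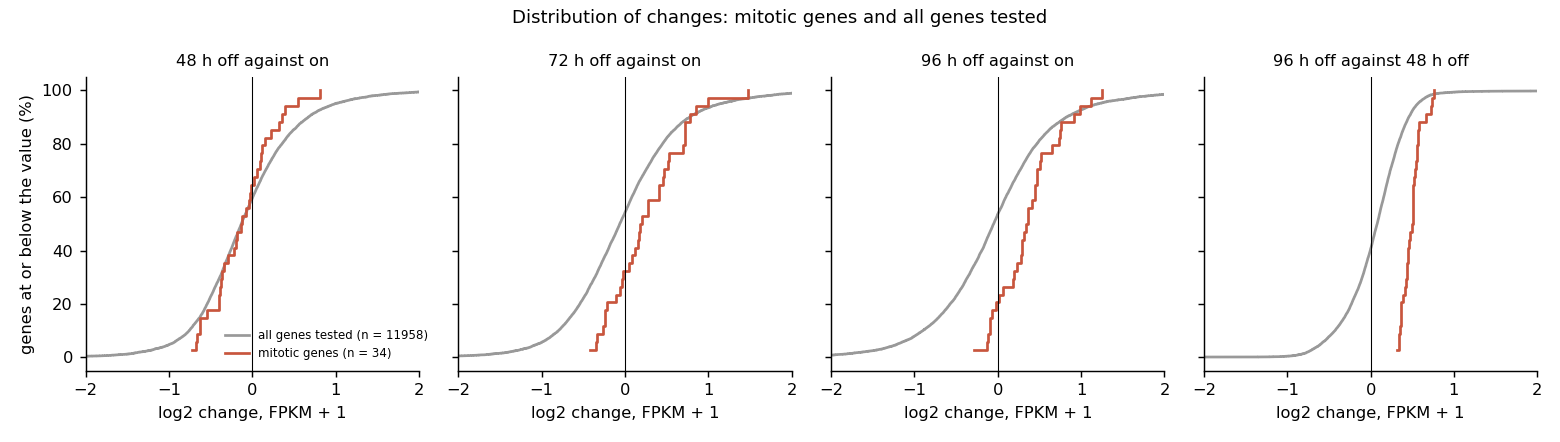
Cumulative distribution (% of genes at or below each log2 change, FPKM + 1) for the 34 mitotic genes and for all 11958 genes tested, in 4 panels: each off time against on, and 96 h against 48 h. Axes end at -2 and 2, which leaves out 125, 193, 277 and 41 genes in turn. The curves overlap at 48 h, and in the last panel the mitotic genes form a steep step between 0.31 and 0.76.

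The 3 longest mitotic transcripts were lower at 96 h than at 72 h, but the next longest, Top2a (5221 bases) and Kif11 (4819 bases), were not (0.04 and 0.06). The 7 members that were lower at 96 h than at 72 h included the 3 longest, Cenpf (11130 bases), Mki67 (10061 bases) and Cenpe (7910 bases), with log2 changes of -0.20, -0.21 and -0.25. The others were shorter: Hmmr (3892 bases), Kif23 (3398 bases), Prc1 (3026 bases) and Ckap2 (2593 bases). Lengths are those of the longest coding transcript in GENCODE M21, not the authors' annotation. Across the 34 members, Spearman's rho between length and the change from 72 h to 96 h was -0.61, across 58 other mitotic genes with a length it was -0.31, and across 10475 genes tested that have a length -0.28. For the changes from the on library rho over the members was 0.40, 0.47 and 0.38, beside 0.20, 0.31 and 0.21 over the other mitotic genes and 0.17, 0.24 and 0.12 over all genes. Genes of 1 library share its RNA and preparation and are not independent, and the cause was not tested.

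**Figure D4:**
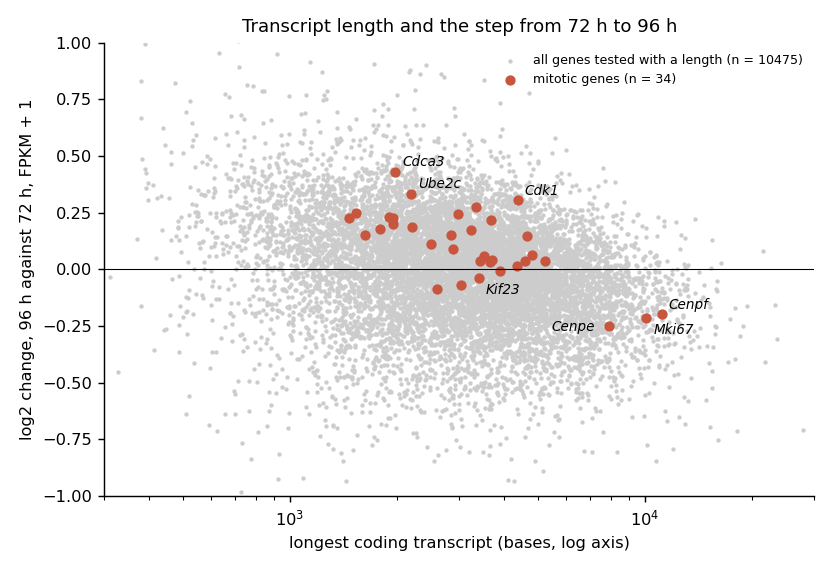
Length of the longest coding transcript (bases, log axis) against the log2 change from 72 h to 96 h off (FPKM + 1) for 34 mitotic genes and for the 10475 genes tested that have a length, of which 28 lie outside the y axis. The 3 longest mitotic genes lie below 0.

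Of 64 further mitotic genes listed for comparison, all of which were tested, 2 rose, 2 fell and 60 did not pass limma's test. Both shares are below the 11.8% of all genes called higher and the 15.2% called lower. Their medians were -0.09, 0.29 and 0.35, close to those of the 34. Cdc25b, a phosphatase that activates Cdk1 earlier than Cdc25c, rose from 35.9 FPKM on to 66.4, 98.3 and 105 FPKM (1.27 ± 0.35, limma adjusted p = 0.0127, range 1.47e-05 to 0.0525). Kntc1, a kinetochore protein of the checkpoint, rose from 5.77 FPKM to 9.74, 13.5 and 15.4 FPKM (1.02 ± 0.32, limma adjusted p = 0.0204, range 0.000115 to 0.0683). Neither passed with no filter on low values. The genes that fell were far below the on library at every time. Fam64a, also named Pimreg, fell from 22.2 FPKM on to 4.87, 3.61 and 2.42 FPKM, a mean change of -2.36 ± 0.39 (limma adjusted p = 0.00178, at most 0.0219 over the alternatives). Cep55, which recruits the abscission machinery to the midbody, fell from 18.1 FPKM on to 3.88, 3.91 and 1.83 FPKM, a mean change of -2.23 ± 0.46 (limma adjusted p = 0.00252, at most 0.0278 over the alternatives). Of the 64, 62 were higher at 96 h than at 48 h (59.4% of all genes were), and Fam64a and Cep55 were the ones that were not.

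Of 20 genes of the DREAM, MuvB, E2F and NF-Y machinery, 3 rose and none fell by limma, beside the 11.8% and 15.2% of all genes so called. They were Tfdp2, an E2F partner, from 10.5 FPKM on to 22.3, 43.3 and 37.8 FPKM, Rb1, the retinoblastoma gene that restrains E2F, from 15.4 FPKM to 25.9, 42.2 and 41.2 FPKM, and E2f2 from 52.8 FPKM to 75.0, 115 and 113 FPKM. The mean changes were 1.58 ± 0.49 for Tfdp2 (limma adjusted p = 0.0115, range 0.000241 to 0.0566) and 1.16 ± 0.39 for Rb1 (adjusted p = 0.0197, range 0.000434 to 0.0714). With no filter on low values neither passed. E2f2 did not pass without the 72 h library (limma adjusted p = 0.107, against 0.0423 with all, range 0.000578 to 0.107). Mybl2 (B-Myb), the MuvB partner in late cell cycle transcription, was at 35.0 FPKM on and at 31.9, 38.5 and 43.5 FPKM off, an order shared with Ccnb1 and Cdk1, and E2f1 was at 24.2 FPKM on and at 22.6, 27.7 and 35.8 FPKM off.

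Among 7 Cdk inhibitor genes, 1 rose, 2 fell and 4 did not pass, beside the 11.8% of all genes called higher and 15.2% called lower. Cdkn2a, which encodes p16 and p19Arf, fell from 18.4 FPKM on to 7.75, 5.88 and 4.66 FPKM, a mean change of -1.47 ± 0.31 (limma adjusted p = 0.00520). Cdkn1a (p21) fell from 63.2 FPKM to 36.1, 31.4 and 32.4 FPKM, a mean change of -0.91 ± 0.10 (limma adjusted p = 0.0120, and 0.0611 without the 72 h library, the highest of a range from 9.62e-05). Cdkn1b (p27) rose from 19.5 FPKM to 34, 41.7 and 40.2 FPKM, by 0.94 ± 0.15 (limma adjusted p = 0.0121). Cdkn2c (p18) was at 35.3 FPKM on and 36.7, 40.5 and 46.0 FPKM off, and Cdkn1c, Cdkn2b and Cdkn2d were below 5 FPKM in every library.

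DNA replication genes, which act a phase earlier, had medians of 0.00, 0.34 and 0.61 over 32 genes, with 4 called higher, a share close to the 11.8% of all genes, and none lower by limma (Ccne1, Ccne2, Cdc6 and Orc1, of which Ccne2 and Orc1 did not pass with no filter on low values). All 32 were higher at 96 h than at 48 h (59.4% of all genes were), with a median of 0.65 for that step. The difference between the lists was not tested.

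Markers of other cell types moved in the same libraries. The 16 erythroid markers other than globins had medians of 1.88, 2.39 and 2.46, all 16 rose by limma, and their summed level was 1020 FPKM on and 3440, 5040 and 5400 FPKM off. With the globins, 18 of 20 rose, and the alpha globin rows Hba-a1 and Hba-a2 are listed at 0 at 96 h. From 48 h to 96 h the erythroid markers other than globins were higher by 0.67 in the median, and all 16 were higher, as all 34 mitotic genes were. Pan-leukocyte markers had medians of -0.37, -0.67 and -1.11, with 5 of 15 called lower (15.2% of all genes) and none higher (11.8%). None was higher at 96 h than at 48 h (59.4% of all genes). The 5 primary granule genes all fell, from a summed 3040 FPKM on to 386, 357 and 327 FPKM off. Their part in the mitotic gene levels was not tested.

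**Figure D5:**
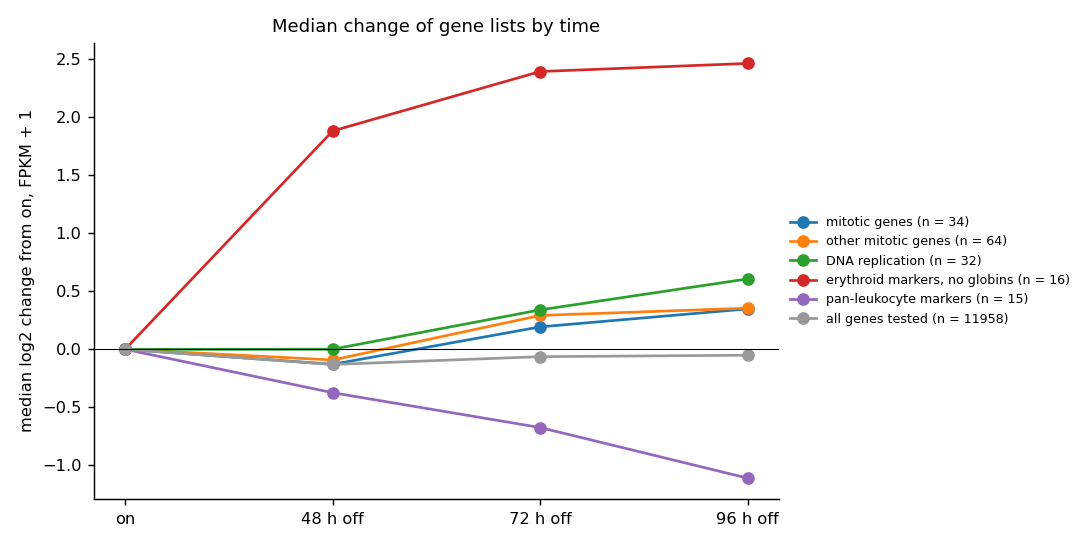
Median log2 change from the on library (FPKM + 1; on is 0 by construction) at 48 h, 72 h and 96 h for the mitotic genes, 5 other sets and their numbers of genes. The mitotic medians go from -0.13 to 0.35, between those of the erythroid markers, up to 2.46, and the pan-leukocyte markers, down to -1.11.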

How the data were processed

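RNA-seq values were used for 4 libraries, 1 per group (NRASG12V on, and off at 48 h, 72 h and 96 h). The authors deposited FPKM values; the submitters' processing notes name TopHat2 2.0.4, Cuffdiff and the build mm9. For Cuffdiff's version, the annotation, strand and read length, the entry is: not given in the sources used here. A further table that combines the times was not used. The 3 tables of 1 time each were put on a common scale by the median ratio of their on columns (factors 0.9651, 1.0167 and 1.0191, over 15825 genes). Per-time changes are log2((off + 1)/(on + 1)) within a table. limma 3.58.1 (R 4.3.3, trend and robust) compared the 3 off libraries with the on library on log2(FPKM + 1), over 11958 of 23235 genes with at least 1 FPKM in at least 1 library, with Benjamini-Hochberg adjustment at 0.05. Its means can differ from the average of the per-time changes in the last decimal. Alternatives were the pseudocount, filter, scaling, time as a covariate and each library left out. The fits with time as a covariate or with a library left out have 1 residual degree of freedom per gene. Their p-values, which often form the ends of the ranges, are not firm bounds. All 34 members are named. Other genes are named where they passed the test in a listed group or regulate the members. Outside that rule, Nras, Incenp, kinesins of the comparison list, lymphoid markers and the alpha globin rows are also named, whether or not they passed. The members and lists were chosen with earlier results of these data known. FPKM carry no depth, so no counting error is given. A further listed marker is not reported here.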

Additional observations from a re-analysis of the deposited data

Results flagged for a closer look

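For 15 of the 34 mitotic genes the change from the on library was negative at 48 h and positive at 96 h. For Plk1, Aurka, Kif11, Ckap2, Tpx2 and Cdca8 the change at 48 h was smaller in size than the median shift of all genes. How many of all genes tested had these signs was not counted. Of all genes, 33.4% were above the on library at all 3 times and 45.7% below it at all 3. Only the rest can have these signs. Their exact share is unknown, so the pattern cannot be called particular to the members. Each time is 1 library and both share the on library, so the difference was not tested. The change at 96 h minus that at 48 h, in log2 units of FPKM + 1, was 0.74 for Cdca3, 0.72 for Cdk1, 0.58 for Cdc25c, 0.57 for Ccnb1, 0.55 for Ccnb2 and 0.53 for Kif20a. It was 0.51 for Ttk, 0.51 for Ckap2, 0.51 for Kif11, 0.50 for Bub1, 0.44 for Aurka and 0.44 for Cdc20. The smallest of the 15 were 0.41 for Tpx2, 0.37 for Cdca8 and 0.36 for Plk1. Among Mybl2, E2f1 and the 7 Cdk inhibitors, 3 had the same signs, also untested: E2f1 with 0.64, Mybl2 with 0.44 and Cdkn2d with 0.29. Of the other listed regulators, Lin54, Rbbp4, E2f8, Rbl1 and Nfyc had these signs too.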

How the results depend on the processing

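Over all genes limma called 3227 (1410 higher, 1817 lower), and 6024 with time as a covariate (2458 higher, 3566 lower). Setting the median change to 0 gave 1738 higher and 1240 lower calls, and quantile normalization 1283 and 1259. Leaving out 1 off library gave 2336 to 4169 calls. Of the 34 mitotic genes, 2 were called. With no filter on low values 0 were, where 2314 of all genes were, and under either other scaling 3 were. With time as a covariate 14 were called (9 higher, 5 lower: Aurkb, Cdca3, Cenpa, Kif23 and Nek2), a smaller share than the 6024 of 11958 genes tested. Among the 34, the 9 higher were a larger share than the 2458 of all genes, and the 5 lower a smaller share than the 3566. Leaving out 1 off library gave 1 to 9 calls, all higher, with 9 without the 48 h library. The mitotic median at 48 h was -0.13, -0.131 with a pseudocount of 0.1 FPKM, -0.121 with 5 FPKM, 0.0229 with the median change at 0 and 0.0492 with quantile normalization. At 72 h these were 0.203, 0.162, 0.281 and 0.313, and at 96 h 0.355, 0.324, 0.419 and 0.425. Genes at least 2-fold higher at 96 h numbered 3 with a pseudocount of 0.1 FPKM and under both scalings. Mean changes that turned sign were all uncalled. With the median change at 0 they were 0.0248 for Cdc25c and 0.0443 for Kif20a, and with quantile normalization 0.0125 for Cdc20 and 0.0697 for Kif20a. Leaving out each off library in turn gave -0.0601 to 0.222 for Ccnb1, -0.0371 to 0.240 for Ccnb2, -0.212 to 0.0755 for Cdc25c, -0.155 to 0.205 for Cdk1, -0.00540 to 0.252 for Ttk, -0.183 to 0.0818 for Kif20a and -0.0263 to 0.158 for Cdca8. The cause of these shifts was not tested. Members higher at 96 h than at 48 h, and at 72 h than at 48 h, counts added after seeing the data, numbered 34 under each pseudocount and scaling, and 25 to 27 were higher at 96 h than at 72 h. No paired analysis was possible because each group has 1 library. FPKM do not show depth, so low levels carry an unknown counting error.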
